A study of Mus musculus with 31 samples.

Results

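De novo lipogenesis was followed in mouse liver through 10 genes: Srebf1, Acly, Acaca, Acacb, Fasn, Elovl6, Scd1, Me1, Thrsp and Pnpla3. Each gene was taken by its symbol in the platform's annotation, and each had 1 probe set. They were 10 of 22180 genes measured with a single symbol. The livers, taken in the morning, were those of 31 male mice of the C57BL/6 strain that were 3 to 4 months old, with an array for each. The 7 Fast-Fast-Fast mice had been through 2 fasts of 16 h within 8 weeks and were sampled at the end of a further 16 h fast, and the 8 Fast-Fast-Fed mice had the same 2 earlier fasts but were sampled fed. The 8 Fed-Fed-Fast mice had eaten freely until a final 16 h fast, and the 8 Fed-Fed-Fed mice ate freely throughout and were sampled fed. Within each history the design asks what the final fast did to these transcripts, and within each final state whether 2 earlier fasts had left a difference.

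De novo lipogenesis turns surplus carbohydrate into fatty acids. In the liver, insulin and glucose raise the transcription of its enzymes after a meal, through the factor encoded by Srebf1 and the carbohydrate-responsive factor encoded by Mlxipl, and fasting lowers it. Citrate exported from mitochondria is split to acetyl-CoA, carboxylated to malonyl-CoA, built into palmitate with NADPH, and then elongated, desaturated and stored as triglyceride.

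Signals were RMA values on a log2 scale, running from -0.0139 to 13.1 over all arrays with array medians of 2.01 to 2.07, with precision limited by how many arrays each group had. Levels of different probe sets were not compared with each other. Arrays correlated with each other over genes at 0.976 to 0.993. The hepatocyte marker Alb lay between 12.92 and 13.07 in all 31 arrays, near the top of the scale. Other hepatocyte markers varied more, such as Ass1 (4.14 to 7.50) and Tat (11.22 to 12.28). The Fed-Fed-Fast replicate 4 array stood apart in the summed signal of the 6 adipocyte markers measured. The sum was 7.37 there on the log2 scale, against 4.79 to 5.27 in the other 30 arrays. Signals were added before the log, so the brightest marker, Ucp1, weighs most in it. Adipoq, Plin1 and Retn reached 2.70, 3.22 and 4.05 among Fed-Fed-Fast livers, against at most 1.80, 2.41 and 2.30 in other groups. Lep and Lipe reached 1.46 and 4.31, no higher than in other groups (up to 1.63 and 4.48). Ucp1, which marks brown fat, read 6.78 there and at most 1.97 in any other array. Fat cells also express lipogenic genes, and the responses with 0 earlier fasts, the Scd1 history values, the list counts and the fasted covariation are given without this array too.

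Stretches of promoter sequence are printed for Srebf1, the regulator of the list, and for Fasn, Thrsp and Pnpla3. Fasn, Thrsp and Pnpla3 moved together between fed animals, and so did Acly, Acaca, Acacb and Elovl6, whose windows are not printed. The stretches are the 250 bases before a RefSeq start of each gene on GRCm38.p6, read 5′ to 3′ in the direction of the gene. All motifs were searched on both strands. Capitals mark TCACNC, the core of the sterol response element TCACNCCAC that the Srebf1 product is known to bind. The Srebf1 start is the third of 3 listed, chr11:60210472-60210721 on the minus strand. Fasn is chr11:120824548-120824797 on the minus strand, Thrsp is chr7:97417551-97417800 on the minus strand, and Pnpla3 is chr15:84167566-84167815 on the plus strand.
Srebf1: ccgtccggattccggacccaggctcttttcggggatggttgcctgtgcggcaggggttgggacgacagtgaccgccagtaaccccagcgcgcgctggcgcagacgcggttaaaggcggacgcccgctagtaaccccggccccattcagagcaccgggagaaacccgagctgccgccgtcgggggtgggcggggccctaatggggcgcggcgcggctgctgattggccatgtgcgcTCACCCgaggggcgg
Fasn: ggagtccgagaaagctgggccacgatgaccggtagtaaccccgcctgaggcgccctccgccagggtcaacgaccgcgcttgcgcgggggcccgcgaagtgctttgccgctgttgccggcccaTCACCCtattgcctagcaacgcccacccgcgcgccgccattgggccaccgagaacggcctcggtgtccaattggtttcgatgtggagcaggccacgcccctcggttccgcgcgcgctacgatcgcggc
Thrsp: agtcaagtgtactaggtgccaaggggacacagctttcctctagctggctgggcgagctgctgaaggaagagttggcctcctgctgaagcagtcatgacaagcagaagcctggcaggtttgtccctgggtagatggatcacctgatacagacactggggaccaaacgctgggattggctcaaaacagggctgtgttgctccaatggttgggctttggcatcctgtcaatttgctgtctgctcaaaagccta
Pnpla3: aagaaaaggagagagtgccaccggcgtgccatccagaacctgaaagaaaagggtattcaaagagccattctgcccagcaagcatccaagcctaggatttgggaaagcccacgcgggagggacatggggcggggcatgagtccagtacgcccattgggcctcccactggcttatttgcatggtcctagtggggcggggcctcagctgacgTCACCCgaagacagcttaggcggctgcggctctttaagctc
The core occurred once in the printed windows of Srebf1, Fasn and Pnpla3 and not in that of Thrsp. The windows of the other Srebf1 starts, which are not printed, did not hold it. Of the 12 starts of the 9 genes of the list with a RefSeq entry, 5 held it, 1 each of Acacb, Fasn, Me1, Pnpla3 and Srebf1. Acly, Acaca and Elovl6, which also moved with Fasn, did not hold it. Over all 32851 listed starts 37.57% held it. The full element TCACNCCAC was in 0 of the 12 windows and in 1.05% of all windows. The E box CACGTG was in 0 of the 12 and in 6.02% of all. The CCAAT box, searched on its own, was found on either strand in 7 of the 12 windows and in 33.85% of all, with 2 copies in Thrsp and 3 in Fasn, of which 2 overlap each other on opposite strands. These matches describe letters in a short window and show no binding.

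The final fast lowered most of the list. In mice with 2 earlier fasts, 9 of the 10 genes were called lower in Fast-Fast-Fast livers than in Fast-Fast-Fed livers (limma, p under 0.05 after Benjamini-Hochberg adjustment across the 22180 genes), where 5.52% of all genes were called lower. In mice with 0 earlier fasts, all 10 were called lower in Fed-Fed-Fast livers than in Fed-Fed-Fed livers, where 6.23% of all genes were. The median log2 change of the 10 was -1.52 with 2 earlier fasts and -1.52 with 0, beside -0.000403 and -0.00364 over all genes. Every fasted array lay below every fed array for 6 of the 10 genes with 2 earlier fasts (2.08% of all genes) and for 7 with 0 (2.1%). The genes whose fasted and fed arrays overlapped in both histories were Acacb, Scd1 and Me1, and Pnpla3 overlapped with 2 earlier fasts alone. Less RNA per cell and fewer cells of a type cannot be told apart in whole-liver RNA. Without the Fed-Fed-Fast replicate 4 array, 9 genes were called with 0 earlier fasts, all but Acacb (log2 change -0.63, limma adjusted p = 0.059). The log2 changes of the others were then -3.58 for Thrsp, -3.08 for Fasn, -2.90 for Srebf1, -2.28 for Acly, -1.69 for Pnpla3, -1.36 for Acaca, -1.36 for Elovl6, -0.87 for Me1 and -0.70 for Scd1.

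**Figure D1:**
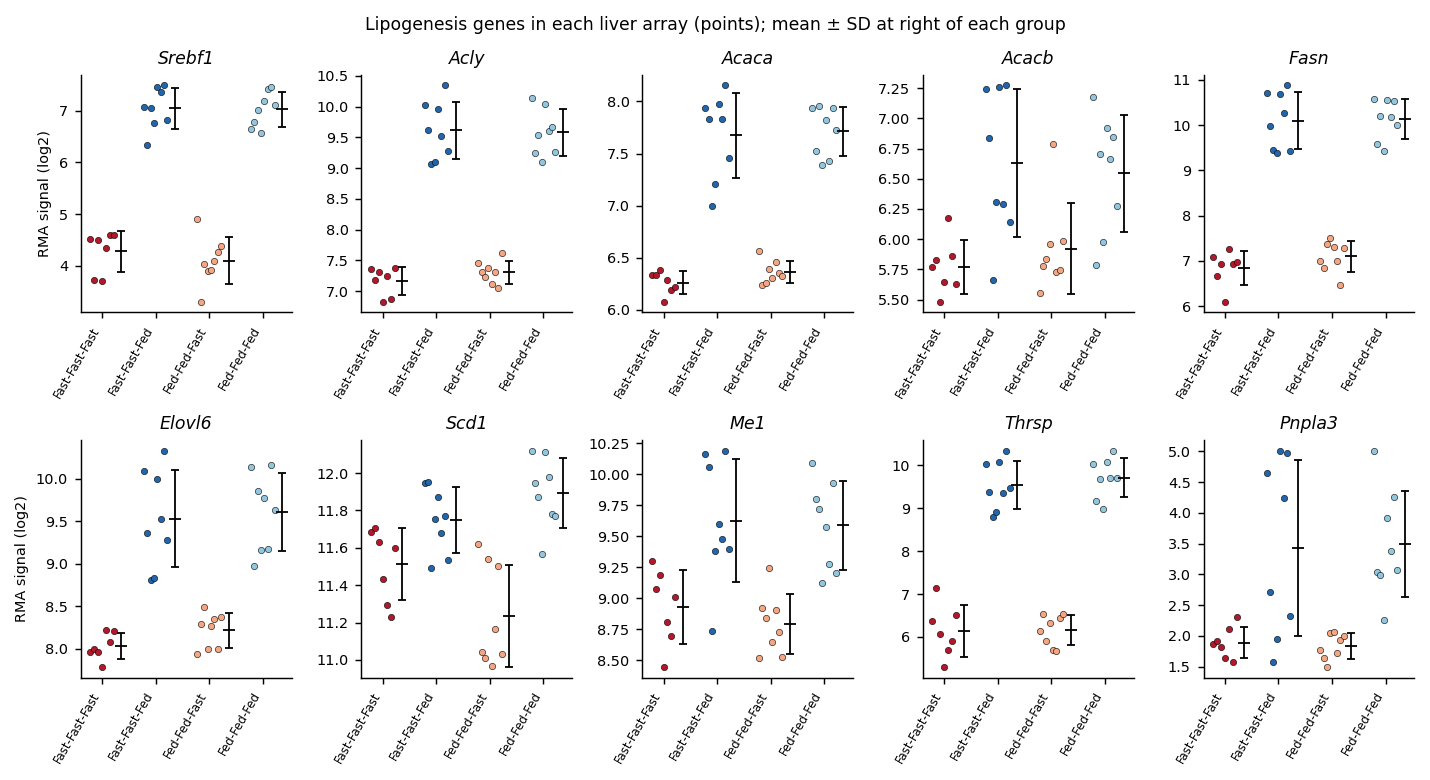
RMA signal (log2) of each gene in every array, with a point per mouse and the group mean ± SD drawn to the right of its points. Srebf1, Acly, Acaca, Fasn, Elovl6 and Thrsp separate fasted from fed livers without overlap in both histories, whereas Scd1 moves over a range of 10.97 to 12.12 and Pnpla3 spreads from 1.58 to 5.01 among Fast-Fast-Fed livers.

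Srebf1 codes for the sterol regulatory element-binding protein that drives fatty acid synthesis genes. It read 3.70 to 4.60 (median 4.50) in Fast-Fast-Fast livers, against 6.33 to 7.49 (median 7.06) in Fast-Fast-Fed livers. In Fed-Fed-Fast livers it read 3.30 to 4.90 (median 4.07), against 6.57 to 7.46 (median 7.06) in Fed-Fed-Fed livers. Every fed liver was higher than every fasted one in either history. Srebf1 was 6.80-fold lower after the fast with 2 earlier fasts (log2 change -2.77, 95% confidence interval -3.16 to -2.37, adjusted p = 6.21e-13 by limma) and 7.61-fold lower with 0 (-2.93, -3.31 to -2.55, adjusted p = 5.62e-14). The probe set does not separate the transcripts from its different starts.

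Acly, whose enzyme splits citrate to supply cytosolic acetyl-CoA, read 6.83 to 7.38 (median 7.25) in Fast-Fast-Fast livers, against 9.07 to 10.34 (median 9.57) in Fast-Fast-Fed livers. Its values were 7.04 to 7.62 (median 7.32) in Fed-Fed-Fast livers and 9.10 to 10.14 (median 9.58) in Fed-Fed-Fed livers. The fasted and fed arrays were apart in both histories, and Acly was 5.46-fold lower with 2 earlier fasts (adjusted p = 2.62e-13) and 4.82-fold lower with 0 (adjusted p = 4.37e-13), both by limma. The carboxylases that make malonyl-CoA changed less. Acaca, the cytosolic acetyl-CoA carboxylase gene, read 6.08 to 6.39 (median 6.29) in Fast-Fast-Fast livers, against 7.00 to 8.15 (median 7.83) in Fast-Fast-Fed livers. In Fed-Fed-Fast livers Acaca read 6.24 to 6.56 (median 6.34), against 7.39 to 7.95 (median 7.78) in Fed-Fed-Fed livers. It did not overlap between states and was 2.66-fold lower with 2 earlier fasts and 2.56-fold lower with 0 (limma, adjusted p = 1.59e-10 and 1.56e-10).

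Acacb codes for the carboxylase at the mitochondrial surface, whose malonyl-CoA restrains entry of fatty acids through carnitine palmitoyltransferase. It read 5.48 to 6.18 (median 5.77) in Fast-Fast-Fast livers, against 5.66 to 7.27 (median 6.57) in Fast-Fast-Fed livers. Values were 5.55 to 6.79 (median 5.81) in Fed-Fed-Fast livers and 5.79 to 7.17 (median 6.68) in Fed-Fed-Fed livers. The states overlapped in both histories. Its log2 change was -0.86 with 2 earlier fasts (SE 0.22, limma adjusted p = 0.00582) and -0.62 with 0 (SE 0.21, adjusted p = 0.0456). The second call was close to the threshold and was lost in 12 fits that each left out 1 array, with adjusted p up to 0.109. Among the Fed-Fed-Fast livers replicate 5 read 6.79 and the other 7 lay between 5.55 and 5.98. Leaving out replicate 5 gave a log2 change of -0.75 (limma adjusted p = 0.0115).

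Fasn, the fatty acid synthase gene that builds palmitate, read 6.10 to 7.27 (median 6.93) in Fast-Fast-Fast livers, against 9.37 to 10.88 (median 10.13) in Fast-Fast-Fed livers. In Fed-Fed-Fast livers it read 6.48 to 7.51 (median 7.15), against 9.42 to 10.57 (median 10.18) in Fed-Fed-Fed livers. No fasted array came near the fed range, and counted from the most lowered of the 22180 genes Fasn ranked 6 with 2 earlier fasts and 9 with 0. Fasn was 9.51-fold lower with 2 earlier fasts (log2 change -3.25, interval -3.70 to -2.80, limma adjusted p = 4.88e-13). With 0 earlier fasts it was 8.14-fold lower (-3.03, -3.46 to -2.59, limma adjusted p = 7.96e-13). Elovl6, which lengthens palmitate toward stearate, read 7.79 to 8.22 (median 8.00) in Fast-Fast-Fast livers, against 8.81 to 10.33 (median 9.45) in Fast-Fast-Fed livers. It read 7.95 to 8.50 (median 8.28) in Fed-Fed-Fast livers, against 8.98 to 10.16 (median 9.70) in Fed-Fed-Fed livers. Its states did not overlap, and its falls were 2.82-fold and 2.61-fold (limma, adjusted p = 3.36e-07 and 6.08e-07).

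Scd1 codes for the stearoyl-CoA desaturase that places the double bond of oleate, and it moved least of the list with 2 earlier fasts. It read 11.23 to 11.71 (median 11.60) in Fast-Fast-Fast livers, against 11.49 to 11.95 (median 11.76) in Fast-Fast-Fed livers, a log2 change of -0.24 (SE 0.11, limma adjusted p = 0.176). It read 10.97 to 11.62 (median 11.10) in Fed-Fed-Fast livers, against 11.57 to 12.12 (median 11.91) in Fed-Fed-Fed livers, a log2 change of -0.66 (SE 0.10, limma adjusted p = 1.27e-05). Only 1 fasted array, Fed-Fed-Fast replicate 1, reached into the fed range in the second pair, and 4 of the 7 fasted arrays did in the first. These signals lie near the top of the scale, whose highest value was 13.1, and how far the scale compresses differences there was not tested. Me1, the cytosolic malic enzyme gene that supplies NADPH, read 8.45 to 9.30 (median 9.01) in Fast-Fast-Fast livers, against 8.73 to 10.19 (median 9.54) in Fast-Fast-Fed livers. It read 8.52 to 9.24 (median 8.78) in Fed-Fed-Fast livers, against 9.12 to 10.09 (median 9.65) in Fed-Fed-Fed livers. The overlap in the first pair came from a single fed array at 8.73, and the falls were 1.62-fold and 1.74-fold (limma, adjusted p = 0.00585 and 0.000835).

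Thrsp, a small nuclear and cytosolic protein gene that responds to thyroid hormone and carbohydrate and promotes lipogenesis, had the largest fall of the 10 in both histories. It read 5.30 to 7.13 (median 6.06) in Fast-Fast-Fast livers, against 8.80 to 10.34 (median 9.42) in Fast-Fast-Fed livers. It read 5.68 to 6.54 (median 6.23) in Fed-Fed-Fast livers, against 8.98 to 10.34 (median 9.71) in Fed-Fed-Fed livers. No fasted array reached the fed range, and the fall was 10.6-fold with 2 earlier fasts (log2 change -3.41, SE 0.24, limma adjusted p = 6.21e-13) and 11.7-fold with 0 (-3.55, SE 0.23, adjusted p = 7.92e-14). Pnpla3, a lipid-droplet protein gene with lipase and acyltransferase activity reported in liver and fat, read 1.58 to 2.31 (median 1.86) in Fast-Fast-Fast livers, against 1.58 to 5.01 (median 3.47) in Fast-Fast-Fed livers. It read 1.49 to 2.07 (median 1.84) in Fed-Fed-Fast livers, against 2.26 to 5.00 (median 3.22) in Fed-Fed-Fed livers. Fasted arrays thus sat around the array medians of 2.01 to 2.07, so the falls of 2.90-fold and 3.15-fold (limma, adjusted p = 0.00919 and 0.00318) are folds of the signals. Whether the fasted Pnpla3 signals were above background was not tested, and against a background signal a fold understates a fall.

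**Figure D2:**
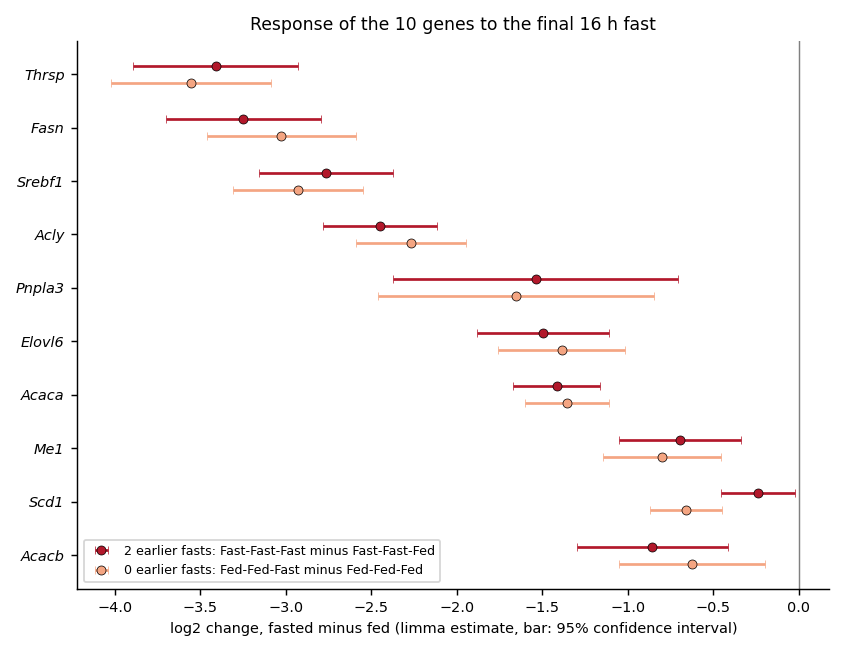
log2 change between fasted and fed livers for each gene (limma estimate with its 95% confidence interval), with 2 earlier fasts above and 0 earlier fasts below in each row. The intervals of the 2 histories overlap for each gene, barely so for Scd1, with the points furthest apart for Scd1 at -0.24 and -0.66.

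The genes around the pathway moved unevenly. Changes of named genes are log2 changes, the first with 2 earlier fasts and the second with 0. Of 24 measured regulators and inputs of lipogenic transcription, 5 rose and 6 fell with 2 earlier fasts, and 7 rose and 6 fell with 0 (list medians -0.10 and -0.06). Of all genes, 6.06% were called higher with 2 earlier fasts and 6.25% with 0, beside the 5.52% and 6.23% called lower. Insig1, which retains the Srebf1 product in the endoplasmic reticulum and is itself a target of these factors, fell (-3.07 and -3.03). Mid1ip1, a relative of Thrsp that activates acetyl-CoA carboxylase, was also called lower in both histories (-2.13 with 2 earlier fasts). Insig2, the related retention protein gene, rose (1.02 and 1.02), and so did Irs2, an insulin receptor substrate gene (1.29 and 1.19).

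Of 8 genes from glucose to pyruvate, 1 rose and 4 fell in each history (medians -0.18 and -0.17). Pklr, the liver pyruvate kinase gene, fell (-2.02 and -1.73), as did Khk, the fructokinase gene (-0.77 and -0.79), and the glucose transporter gene Slc2a2 (-0.65 and -0.43). Tpi1, the triose-phosphate isomerase gene, rose (0.37 and 0.36). Of 11 genes that supply citrate, acetyl-CoA and NADPH, 7 fell with 2 earlier fasts and 6 with 0, and 1 rose in each (medians -0.34 and -0.37). Acss2, which makes acetyl-CoA from acetate, fell (-2.20 and -2.06), and so did Pgd of the pentose phosphate pathway (-0.89 and -0.88). Pcx, the pyruvate carboxylase gene, was the one that rose (0.62 and 0.76). The mitochondrial citrate carrier gene Slc25a1 (-0.59 and -0.59) and the isocitrate dehydrogenase gene Idh1 (-0.51 and -0.59) fell too.

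Of 11 elongation and desaturation genes beyond Elovl6 and Scd1, 4 fell and 2 rose in each history (medians -0.09 and -0.18). Hacd3, a dehydratase of the elongation cycle, rose (0.75 and 0.84), whereas Cyb5r3, a cytochrome b5 reductase gene, fell (-0.72 and -0.76), as did the elongase gene Elovl3 (-0.49 and -0.76). Another elongase gene, Elovl1 (-0.49 and -0.50), and the desaturase gene Fads1 (-0.41 and -0.63) fell as well. Among 13 genes of fatty acid activation and glycerolipid assembly, 5 rose and 4 fell with 2 earlier fasts and 6 rose and 4 fell with 0 (medians 0.21 and 0.07). Gpam, the mitochondrial glycerol-3-phosphate acyltransferase gene, fell (-0.92 and -0.85). The phosphatidate phosphatase gene Lpin2 (0.81 and 1.10) and the acyltransferase gene Agpat3 (0.62 and 0.70) rose, and so did Gpat4, of the same reaction as Gpam (0.75 and 0.65). Lpin1 rose with 0 earlier fasts (0.93) and was at 0.04 with 2 (limma adjusted p = 0.974), a difference between histories that was not called in the interaction.

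All 10 measured sterol synthesis genes, targets of the related factor encoded by Srebf2, fell in both histories, with medians of -2.45 and -2.35. Among them were Sqle (-3.64 and -3.45), Fdps (-3.64 and -3.59), Nsdhl (-3.05 and -3.05) and Cyp51 (-2.70 and -2.69). On the oxidation side, Cpt1a, the enzyme gene whose product malonyl-CoA inhibits, rose (1.30 and 1.36), as did Mlycd, whose product degrades malonyl-CoA (0.55 and 0.45), and these were the 2 genes measured on that list (medians 0.93 and 0.90). Apart from Lpin1 with 2 earlier fasts, the limma adjusted p of each value named from these lists was at most 0.0457. Markers of other cells were set beside these changes. The 8 Kupffer cell markers had 0 called higher and 2 lower with 2 earlier fasts and 0 higher and 5 lower with 0, with a log2 sum of 8.02 to 8.90 in Fast-Fast-Fast livers, 8.20 to 9.38 in Fast-Fast-Fed livers, 7.87 to 9.09 in Fed-Fed-Fast livers and 8.41 to 9.69 in Fed-Fed-Fed livers. The 8 stellate and fibroblast markers had 3 called lower in each history, the 6 adipocyte markers 0 called with 2 earlier fasts and 1 higher with 0, and the 8 hepatocyte markers 0 called with 2 earlier fasts, and 3 higher and 1 lower with 0. The 8 sinusoidal endothelial markers had 1 higher and 1 lower with 2 earlier fasts and 1 higher with 0, the 4 exocrine pancreas markers 0 called and then 1 higher, and the 5 cholangiocyte and 6 lymphocyte markers 0 called in either. Without Fed-Fed-Fast replicate 4, the counts of the 7 pathway lists with 0 earlier fasts were the same but for 1 more regulator called lower, 7 in place of 6. Of the marker lists, Kupffer cells then had 6 called lower and adipocytes 0 called, and the others kept their counts. The part of these cells in the results was not tested.

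**Figure D3:**
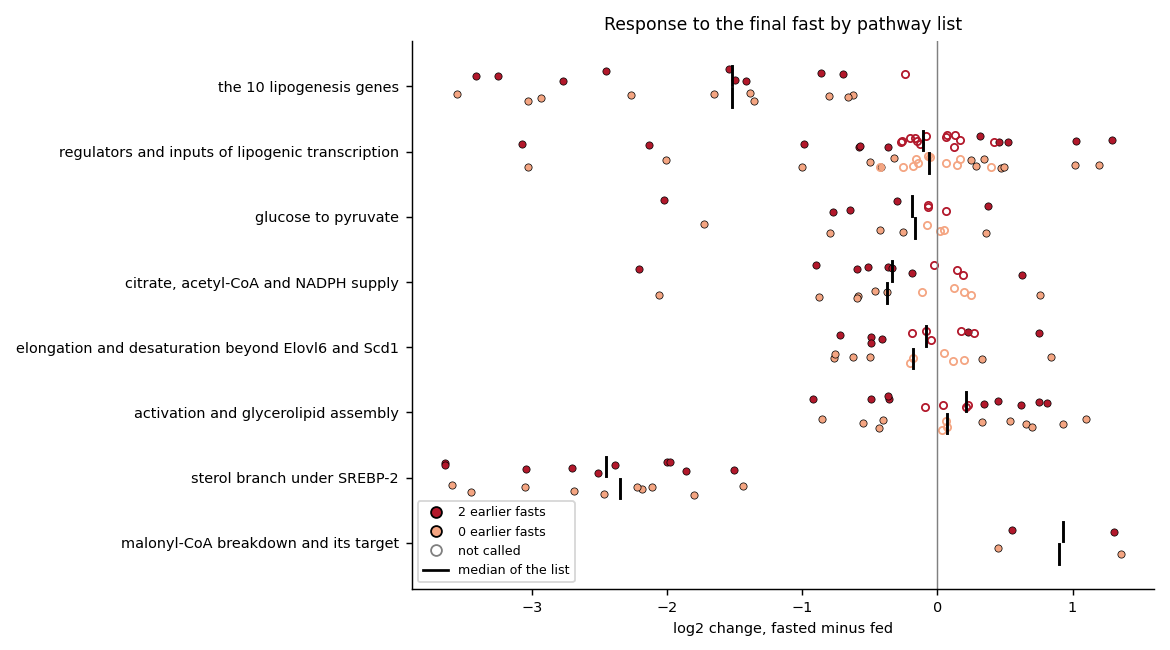
log2 change between fasted and fed livers for the 10 lipogenesis genes and every measured gene of each pathway list. Filled points are called genes, open points the others, and a bar marks the list's median. The 10 lipogenesis genes all lie below 0 and the sterol genes between -3.64 and -1.44. The other lists hold genes on both sides of 0 except for the malonyl-CoA list, which lies above it.

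No gene of the list was called for the earlier fasts. Between Fast-Fast-Fast and Fed-Fed-Fast livers 0 of the 10 genes were called and 0% of all 22180 genes, with 996 of all genes at an unadjusted p under 0.05 by limma. Between Fast-Fast-Fed and Fed-Fed-Fed livers the counts were again 0 of 10 and 0%, with 1245 genes at that unadjusted level. The interaction, which tests whether the fast response differed between histories, gave 0 of 10, 0% and 1023. In fasted livers the differences ran from -0.25 for Fasn (95% confidence interval -0.71 to 0.20) to 0.28 for Scd1 (0.06 to 0.49). In fed livers they ran from -0.17 for Thrsp (-0.63 to 0.30) to 0.08 for Acacb (-0.34 to 0.51). The widest intervals belonged to Pnpla3, -0.78 to 0.89 in fasted and -0.87 to 0.75 in fed livers, so a difference of that size was not detectable for it. These intervals do not show that the histories were alike.

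Scd1 was the 1 gene of the list with an unadjusted p under 0.05 for history. Its signal was 11.23 to 11.71 in Fast-Fast-Fast livers, against 10.97 to 11.62 in Fed-Fed-Fast livers, and the groups overlapped (unadjusted p = 0.0146, limma adjusted p = 1.00). The fast lowered it by 0.42 less on the log2 scale with 2 earlier fasts than with 0 (SE 0.15, unadjusted p = 0.00806, limma adjusted p = 0.999). That difference did not pass the correction over all genes. Without Fed-Fed-Fast replicate 4 the history difference of Scd1 in fasted livers was 0.32 and the interaction 0.46 (limma adjusted p = 0.986 and 0.994).

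Fed livers differed widely from each other in most of the enzymes: the SD of Pnpla3 was 1.43 in Fast-Fast-Fed livers, against 0.25 in Fast-Fast-Fast livers, and that of Acaca 0.41 against 0.11. The fasted Pnpla3 signals and those of some fed livers lay near the array medians, and whether they were above background was not tested. The SD was larger in fed than in fasted livers for 7 of the 10 genes with 2 earlier fasts and 8 with 0, where 54.5% and 50.3% of all genes had a larger SD in fed livers. It was not larger for Srebf1 and Scd1 in either history, nor for Thrsp with 2 earlier fasts (0.555 in fed and 0.597 in fasted livers). Some animals were high or low for most of the list. Fast-Fast-Fed replicates 1, 5 and 7 lay in the upper part of their group for all 10 genes, and replicates 3 and 4 for 0 of 10. Among Fed-Fed-Fed livers, replicate 4 was the lowest for 8 genes and replicate 1 the highest for 6. Fasted animals showed such runs too: Fast-Fast-Fast replicate 4 was the lowest for 7 genes and in the upper part of its group for 0. Fed-Fed-Fast replicate 4, the array with the raised adipocyte sum, was in the upper part for 8.

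With Srebf1 as the measure, no gene of the list was called. Over the 16 fed arrays, with values centred on their group means, 0 of the other 9 genes were called with a positive slope on Srebf1 (limma, 0% of 22179 genes), while 1396 genes had an unadjusted p under 0.05. Pearson's r with Srebf1 was 0.58 for Fasn (permutation p = 0.029, Spearman's rho 0.60, p = 0.021), 0.57 for Thrsp (p = 0.0295, rho 0.68, p = 0.00672) and 0.52 for Pnpla3 (p = 0.0514, rho 0.62, p = 0.0162). It was 0.44 for Elovl6, 0.39 for Acly, 0.32 for Acaca, 0.32 for Acacb, 0.0022 for Scd1 and -0.02 for Me1, with permutation p of 0.11 to 0.994. The adjusted p over all genes were 0.646 to 1.00. Without the 2 fed arrays farthest from the median of Srebf1, r was 0.59 for Fasn, 0.55 for Thrsp and 0.46 for Pnpla3.

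Predicted and numbered gene models were left out in naming the genes most like or most opposed to Srebf1, here and in fasted livers below. Of the remaining genes outside the list, the most like Srebf1 over the fed arrays, by Pearson's r, were Cct6b (r = 0.85), Eef2kmt (0.84), Sf3a1 (0.81), Foxi2 (0.80), Slc26a1 (0.79), Lrrc20 (0.79), Grp (0.79) and Slc25a45 (0.79). The most opposed were Stat5b (-0.89), Samd8 (-0.88), Cpeb2 (-0.87) and Crebrf (-0.86). None of these 12 passed the adjustment (limma adjusted p 0.0847 to 0.453). Fasn ranked 364 of 22179 genes by r with Srebf1, Thrsp 387 and Pnpla3 636.

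With Fasn as the measure, chosen after the correlations among the genes had been seen, most of the enzymes had a high correlation with it in fed livers. Of the other 9 genes, 6 were called with a positive slope, where 0.0586% of all genes (13 of 22179) were. In a fit with the replicate number as a term, 0 of the 9 and 0% of all genes were called, with partial r of 0.69 to 0.89 for the same 6. The added terms leave fewer degrees of freedom than the main fit, so a call is harder to reach at the same r. Pearson's r with Fasn was 0.94 for Acly (rho 0.93), 0.94 for Pnpla3 (rho 0.92), 0.92 for Thrsp (rho 0.86), 0.91 for Elovl6 (rho 0.90), 0.90 for Acacb (rho 0.87) and 0.87 for Acaca (rho 0.89). Permutation p of r were 1e-05 to 6e-05, where 1e-05 is the smallest that the resamples can give, and limma adjusted p over all genes were 3.03e-05 to 0.0151. Me1 (r = 0.67), Scd1 (0.62) and Srebf1 (0.58) had permutation p of 0.0097, 0.0143 and 0.029 and were not called (limma adjusted p = 0.382, 0.61 and 0.584). For each rise of 1 in Fasn on the log2 scale, Pnpla3 was higher by 2.03 (SE 0.18), Acacb by 0.91, Elovl6 by 0.86, Thrsp by 0.86, Acly by 0.72 and Acaca by 0.53. Some fed Pnpla3 signals in this slope were as low as fasted ones, such as 1.58 and 1.95 in Fast-Fast-Fed replicates 3 and 4. Whether these were above background was not tested.

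Within the fed groups r was 0.87 to 0.97 for these 6 genes in Fast-Fast-Fed livers and 0.78 to 0.97 in Fed-Fed-Fed livers. Fitted alone, with 8 arrays each, Fast-Fast-Fed livers gave 1 call among the 9 genes (0.00451% of all genes) and Fed-Fed-Fed livers gave 0 (0%). Without the 2 fed arrays farthest from the median of Fasn, r was 0.84 to 0.92. Over all 45 pairs of the 10 genes the median r in fed livers was 0.74, with 22 pairs over 0.8. Fasn and the 6 genes called with it, a choice made on these same arrays, had r of 0.82 to 0.94 in their 21 pairs, which is given as a description. Srebf1 paired with the other 9 at a median of 0.39, Scd1 with the 8 other than Srebf1 at 0.61 and Me1 with its 8 at 0.70. Each of the 10 genes was also tried as the measure, and Pnpla3, Elovl6 and Thrsp gave 6 called members each, where 0.0676%, 0.0631% and 0.0541% of all genes were called. Acly, Acacb and Acaca gave 5 each, against 0.0721%, 0.0451% and 0.0271% of all genes. Srebf1, Scd1 and Me1 gave 0 each, against 0%, 0.00451% and 0.00902%.

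**Figure D4:**
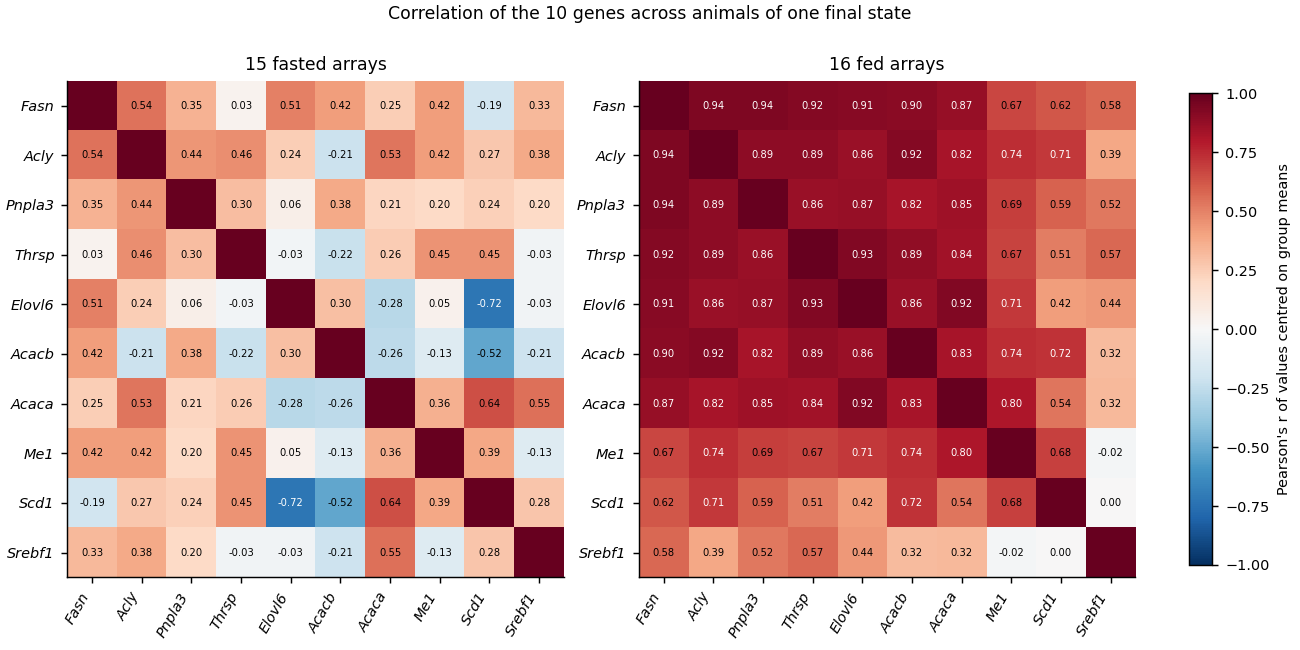
Pearson's r of every pair of genes over the 15 fasted arrays (left) and the 16 fed arrays (right), with values centred on their group means. In fed livers the 21 pairs among Fasn, Acly, Acaca, Acacb, Elovl6, Thrsp and Pnpla3 lie between 0.82 and 0.94 while pairs with Srebf1 lie between -0.02 and 0.58, and in fasted livers pairs run from -0.72 to 0.64.

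Of the 13 genes called with Fasn in fed livers, 7 were outside the list, and 2 more (0.00902% of all genes) were called with a negative slope. Gpam (r = 0.88), Pgd (0.85), Mvd (0.84) and Acss2 (0.83) belong to the surrounding lists of glycerolipid assembly, NADPH supply, sterol synthesis and acetyl-CoA supply, and all 4 fell in the fast. The other 5 are named after their values were seen. Aacs, which activates acetoacetate for lipid synthesis, had an r of 0.83 and Chrna4, a nicotinic acetylcholine receptor subunit gene, 0.83, and both fell in the fast. Cyp17a1, a steroid hydroxylase gene, had an r of 0.87 with Fasn among fed livers, but it rose in the fast: it read 8.15 to 10.64 in Fast-Fast-Fast livers, against 4.66 to 6.95 in Fast-Fast-Fed livers, 10.7-fold (limma adjusted p = 1.18e-09). In Fed-Fed-Fast livers Cyp17a1 read 8.99 to 10.53, against 4.53 to 6.38 in Fed-Fed-Fed livers. Fbxo21, an F-box protein gene, had an r of -0.91, and Gabarapl1, an autophagy gene, -0.88.

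In fasted livers no gene of the list was called with either measure. Over the 15 fasted arrays, 0 of 9 genes were called with a positive slope on Fasn (0% of all genes, with 1128 at an unadjusted p under 0.05 in either direction by limma). On Srebf1 it was again 0 of 9 and 0% for positive slopes (1819 unadjusted), and 1 gene outside the list, 0.00451% of all, had a negative slope. The r with Fasn ran from -0.19 for Scd1 to 0.54 for Acly (permutation p = 0.046, rho 0.40, p = 0.158), and without the 2 farthest arrays that of Acly was 0.08. By group, r with Fasn in the 7 Fast-Fast-Fast livers was 0.78 for Elovl6, 0.78 for Srebf1, 0.67 for Acly, 0.62 for Acaca, 0.57 for Me1 and 0.51 for Pnpla3. In the 8 Fed-Fed-Fast livers it was 0.33 for Elovl6, -0.04 for Srebf1, 0.40 for Acly, -0.11 for Acaca, 0.24 for Me1 and 0.17 for Pnpla3. Acacb had 0.44 and 0.43, Thrsp 0.24 and -0.30 and Scd1 -0.07 and -0.28 in Fast-Fast-Fast and Fed-Fed-Fast livers. The difference between these groups was not tested, and the pooled values average over it. The r with Srebf1 ran from -0.21 for Acacb to 0.55 for Acaca (permutation p = 0.0409, rho 0.39, p = 0.167), and 0.23 without the 2 farthest. Over all 45 pairs the median r was 0.26 in fasted livers, against 0.74 in fed livers, and 13 of the 45 were below 0 in fasted livers, against 1 in fed livers. Counts of calls with Fasn and with Srebf1 were also 0 without the Fed-Fed-Fast replicate 4 array. By the same measure the genes most like Srebf1 in fasted livers were Olig3, Fam32a, Mgst1, Fam166b, H2al1o, Rnpep, Rab33b and Mir344 (r of 0.81 to 0.85), and the most opposed were Fam13a, Sntb1, Cobll1 and Tcf12 (-0.89 to -0.86). Fam13a alone passed the adjustment (limma adjusted p = 0.0341, and 0.0383 without Fed-Fed-Fast replicate 4).

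A difference of slopes on Fasn between the states, fasted minus fed, was fitted over all 31 arrays, also after the correlations had been seen. Pnpla3 was the only gene called, 0.00451% of 22179 genes: its slope was 0.23 in fasted and 2.03 in fed livers, a difference of -1.81 (SE 0.30, limma adjusted p = 0.0233). In fasted livers Pnpla3 lay near the array medians, with an SD of 0.25 in Fast-Fast-Fast and 0.21 in Fed-Fed-Fast livers. A signal at background would show no slope there, so this difference is given as one of signals and says nothing of how the transcript followed Fasn in fasted livers. Acly, Acaca, Acacb, Elovl6 and Thrsp also had lower slopes in fasted livers, at an unadjusted p of 0.0021 to 0.0283 and an adjusted p of 0.687 to 0.912. Srebf1 had slopes of 0.39 and 0.39. Over all genes 1138 had an unadjusted p under 0.05. The Pnpla3 call was lost on leaving out any 1 of 8 arrays, Fast-Fast-Fast replicates 1, 4 and 5, Fast-Fast-Fed replicates 4, 5 and 7 and Fed-Fed-Fast replicates 3 and 7, with adjusted p up to 0.234, and remained without Fed-Fed-Fast replicate 4.

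**Figure D5:**
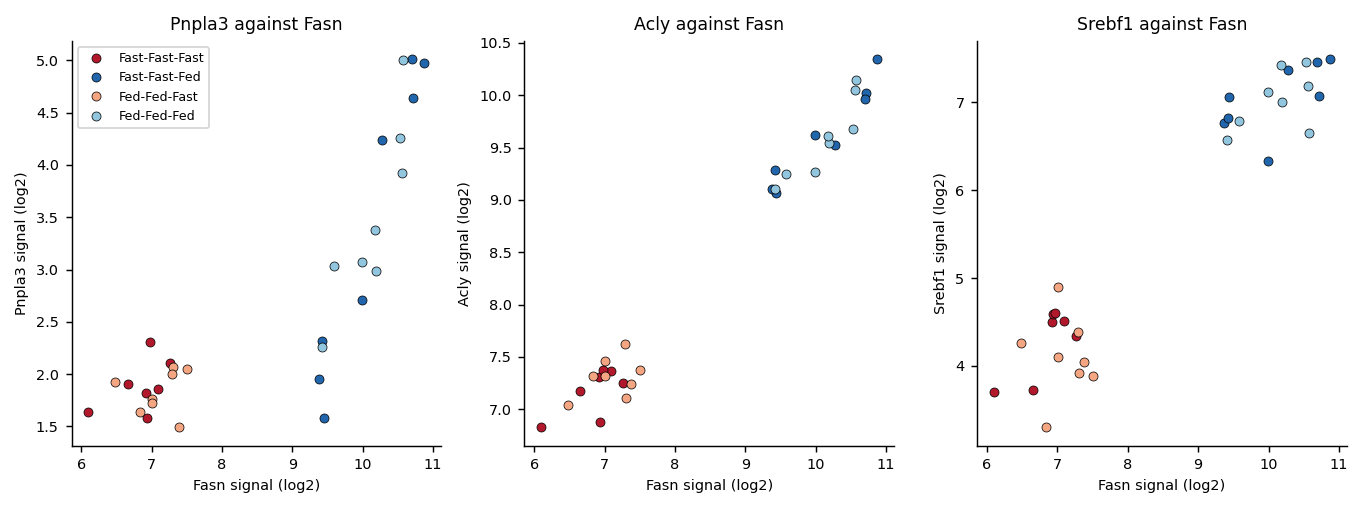
Signals (log2) of Pnpla3, Acly and Srebf1 against Fasn, with a point per mouse coloured by group. Fed livers form a line for Pnpla3 and Acly and a looser cloud for Srebf1, and fasted livers lie apart at Fasn signals of 6.10 to 7.51, with Pnpla3 between 1.49 and 2.31.

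The replicate numbers in the labels went along with this variation among fed livers. Fast-Fast-Fed and Fed-Fed-Fed arrays of the same number correlated over the 8 numbers at r = 0.82 for Pnpla3 (exact permutation p = 0.0091), 0.80 for Thrsp (p = 0.0181), 0.76 for Fasn (p = 0.0382), 0.70 for Srebf1 (p = 0.0549) and 0.68 for Acly (p = 0.0703). The other 5 genes gave 0.15 to 0.58. The median was 0.63 for the 10 genes, against 0.04 over all genes. Most of the 10 genes covaried over these arrays, so their values are not independent of each other here. Of all genes 4.91% had an exact p under 0.05, and after adjustment over all genes 0 passed (smallest adjusted p = 0.635, 0.941 for Pnpla3). Over the 7 shared numbers of Fast-Fast-Fast and Fed-Fed-Fast arrays the 10 genes had a median r of 0.18, from -0.73 for Me1 to 0.69 for Acacb, with 0 of 10 at an exact p under 0.05. The labels do not say what a number stands for. Its part in the covariation was not tested beyond the fit with the number as a term, which had fewer degrees of freedom.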

How the data were processed

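The values were the authors' log2 signals, deposited after RMA per the submitters' processing notes; the sources used here give no version. The deposited table covered 41345 probe sets on 31 arrays. GEO's platform annotation gave 23521 of them 1 symbol, 1814 several and 16010 none. The brightest probe set of each symbol over all arrays stood for its gene, leaving 22180 genes, of which 1082 had more than 1 probe set, and 23328 probe sets had an Entrez ID in the RefSeq gene list of GRCm38.p6, which changed no symbol. Background signals and detection calls were not used here.

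Groups came from the sample titles. A limma fit with 1 mean per group over all 31 arrays gave both fast responses, both history comparisons and their interaction, with Benjamini-Hochberg adjustment over all genes and a threshold of 0.05. Covariation was fitted in limma as each gene on Srebf1, or on Fasn, with a group term. Single correlations used permutation tests of 1e+05 resamples, two-sided, and correlations over shared replicate numbers enumerated every pairing. P-values measure the spread between arrays, 1 per mouse. The labels give no batch. The fits were tested on simulated data.

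The text names the 10 genes, up to 4 called genes of each of 7 pathway lists with the largest change in each fast response, and the 8 most and 4 least correlated other genes with Srebf1 in each state. Predicted and numbered gene models were left out of the genes named for their correlation with Srebf1. Counts from 9 lists of cell markers were made, and 1 of these, erythroid, had no gene measured. The genes, lists and tests were chosen with earlier results of these data known. Deviations from the group means in same-numbered arrays of different groups correlated at an average of 0.0283 (-0.0643 to 0.116 over 45 pairs). Of these pairs, 3 of 45 were over 0.1. Pairs with other numbers averaged -0.00399 (-0.194 to 0.179 over 315 pairs), with 6 of 315 over 0.1. The main fits did not pair the mice by number, since the labels do not say what it marks. Fits with the number as a term were run as an alternative. Alternatives were a replicate block, only the compared groups, an intensity trend, mean probe sets, a filter on dim genes, cyclic loess, centred medians, Spearman's rho, pooled or single groups, and each array left out in turn. Tools were R 4.3.3 with limma 3.58.1 and data.table, and Python 3.11.15 with pandas 2.3.3, numpy 2.4.6 and matplotlib 3.10.9.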

Additional observations from a re-analysis of the deposited data

Results flagged for a closer look

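Acacb in the liver of Fed-Fed-Fast replicate 5 read 6.7887, while the other 7 Fed-Fed-Fast livers read 5.5536 to 5.9847, and the gap to its nearest neighbour was 0.6509 of the group's range, more than Dixon's limit at 95% allows for 8 arrays. Chance alone marks about 1 in 20 groups, and 1 of the 40 groups examined was marked.

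The slope of Pnpla3 on Fasn differed between fasted and fed livers by -1.8065 (limma adjusted p = 0.0233), with slopes of 0.23 in fasted and 2.03 in fed livers. Whether the fasted Pnpla3 signals were above background was not tested.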

How the results depend on the processing

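The 10 genes kept their direction under every alternative run for the 2 fast responses, and with 2 earlier fasts none of 220 values changed sides of the threshold. Some alternatives could not move a log2 change of these genes, only its p-value. These were mean probe sets, as each gene had 1 probe set, the filter on dim genes, the intensity trend and the fit of only the compared groups. With 0 earlier fasts 217 of 230 did not, and the other 13 were Acacb, which lost its call under the intensity trend (limma adjusted p = 0.0636) and under 12 of the single omissions, with log2 changes of -0.75 to -0.53 over its alternatives. No history or interaction value was called under any alternative run, and likewise none with Srebf1 in either state or with Fasn in fasted livers.

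With Fasn in fed livers, 6 genes were called with all arrays, 5 to 6 on leaving out an array, 1 in Fast-Fast-Fed livers alone and 0 in Fed-Fed-Fed livers alone, both of which use fewer arrays. With the replicate block, which leaves fewer degrees of freedom than the main fit, 0 were called. The partial r with Fasn was then 0.69 for Acly, 0.71 for Pnpla3, 0.80 for Acacb, 0.82 for Thrsp, 0.89 for Acaca, 0.89 for Elovl6 and 0.05 for Srebf1. The labels do not say what the numbers mark, and the cause was not tested. By Spearman's rho, Acacb (adjusted p = 0.0517) and Thrsp (0.0671) missed the threshold. Acaca missed it without the 2 farthest arrays (r = 0.84, limma adjusted p = 0.138) and without Fast-Fast-Fed replicate 4 or 7 (0.0878 and 0.0902). The slope difference of Pnpla3 was -1.53 with the replicate block (limma adjusted p = 0.308), so that 0 genes of the list were called, and 0 to 1 were called on leaving out an array. The fits on Fasn and the slope difference were added after the correlations had been seen. The replicate block changed no other call among the 10 genes. The number of arrays per group limits what could be detected, and the scaling alternatives moved the median of all genes by less than 0.1.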
